A study of Mus musculus with 4 samples.

Results

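Acute phase genes encode plasma and tissue proteins whose amounts shift during inflammation. The liver is the textbook source, and fibroblasts, epithelial cells and macrophages can make several of them too. Interleukin 6 acting through STAT3, and interleukin 1 and tumour necrosis factor acting through NF-κB and C/EBP factors, are the known inducers. The 6 genes described here are Saa3, Hp, Lcn2, Cp, Serpina3n and Serpina3g, found by symbol among 31017 symbols in the gene lists of the libraries. They were chosen from earlier results of these data, in which they stood out in cultured testis, so their library levels and ratios are given as a description and no test was made of them.

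Testis cells of C57BL/6 mice with an Acr-Gfp transgene, which all groups carried, were sequenced as 4 single-cell RNA libraries, 1 for each group. For the 2-day culture and the 7-day culture, testes taken at 7 days postpartum (dpp) were stripped of their capsule, cut up and kept on agarose in α-MEM with AlbuMAX, a lipid-rich serum albumin, under a ceiling chip of the silicone PDMS. Uncultured testes gave the remaining libraries, at 9 dpp and at 14 dpp, the ages that 2 and 7 days of culture add up to. Values listed in library order are those of the 2-day culture, 7-day culture, 9 dpp, 14 dpp. The labels name neither the number of animals per library nor any pooling. A single library per group leaves replicate error unknown: every interval is an exact 95% interval for counting error only, and culture cannot be told apart from library.

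After filtering, 6879, 4817, 5146 and 6219 cells were kept, in library order. Their summed unique molecular identifiers (UMIs, each standing for 1 captured RNA molecule) ranged from 32072511 to 57503743 per library. Between 29 and 74 barcodes of kept cells were shared by any pair of libraries. Cells were put in classes by marker UMIs, and the 6 genes are no markers. The share of stromal- or myoid-like cells was 36.4%, 31.5%, 29.8% and 18.4%, so whole-library levels also reflect the mixture of cells. Class names were checked where a class had at least 50 cells in a library: none had more markers of another class than of its own among its 10 leading genes, and germ-like cells at 14 dpp had none of any class there. Endothelial- and macrophage-like cells, and Leydig-like cells of the 7-day culture, were fewer and were not checked in this way. Neutrophils, which carry Lcn2 protein, were looked for by 10 marker genes: their summed level was 2.72 to 4.33 counts per 1000000 UMIs (CPM) in every library, and 6, 4, 4 and 6 of the 10 had 0 UMIs, in library order. Retnlg and Ly6g were at 0 in all 4 libraries, while Camp had 13 to 83 UMIs, Cxcr2 9 to 167 and Csf3r 6 to 60; these are named after their values were seen. The summed level of 8 macrophage markers was 16.8, 86.9, 105 and 145 CPM in library order, so it was lowest where the 6 genes were highest; its part in the results was not tested. Summed levels of 6 hepatocyte genes were 2.81 to 5.75 CPM, lowest after 2 days of culture.

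Saa3, a serum amyloid A protein that travels with high-density lipoprotein and is made outside the liver, lies on the minus strand of chromosome 7 (GRCm38, chr7:46711998-46715700, ENSMUSG00000040026). Its level was 10388 CPM after 2 days and 607 CPM after 7 days of culture, 1.11 CPM at 9 dpp and 0.813 CPM at 14 dpp. The 2 culture libraries were high and both in vivo libraries near 1 CPM. The ratio to the in vivo library of the same total age was 9333-fold (7309 to 12119) for the 2-day culture and 746-fold (559 to 1020) for the 7-day culture.

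Hp encodes haptoglobin, the plasma protein that binds free haemoglobin, and lies on chromosome 8 (chr8:109575128-109579172, minus strand, ENSMUSG00000031722). It was at 455, 65.8, 0.122 and 0.0530 CPM in library order. The in vivo levels rest on 7 and 3 UMIs. The culture to in vivo ratios were 3735-fold (1813 to 9293) and 1241-fold (424 to 6024).

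Lcn2 encodes lipocalin 2, which binds bacterial siderophores and so withholds iron from microbes (chromosome 2, chr2:32384633-32388252, minus strand, ENSMUSG00000026822). It was at 148, 13.0, 0.226 and 1.66 CPM in library order. The 2-day culture was 653-fold higher than 9 dpp (382 to 1228). The 7-day culture was 7.84-fold higher than 14 dpp (6.28 to 9.89), with a lower culture level than at 2 days and an in vivo level above that of 9 dpp.

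Cp encodes ceruloplasmin, the copper-carrying ferroxidase of plasma (chromosome 3, chr3:19957054-20009145, plus strand, ENSMUSG00000003617). It was the only one of the 6 with a sizeable level in vivo, at 20.4 CPM at 9 dpp and 23.9 CPM at 14 dpp, against 225 CPM after 2 days and 52.7 CPM after 7 days of culture. The ratios were 11-fold (10.4 to 11.7) and 2.20-fold (2.06 to 2.36).

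Serpina3n and Serpina3g belong to the mouse family of serine protease inhibitors related to human alpha-1-antichymotrypsin and lie in 1 gene cluster on chromosome 12. Serpina3n, an inhibitor of cathepsin G and granzyme B (chr12:104406729-104414329, plus strand, ENSMUSG00000021091), was at 256, 36.0, 0.0174 and 0.636 CPM in library order. At 9 dpp it had 1 UMI, so the ratio of 14729-fold has an interval of 2643 to 581831. The 7-day ratio was 56.6-fold (40.7 to 81.1). Serpina3g, an intracellular inhibitor known from lymphocytes and macrophages (chr12:104236245-104241939, plus strand, ENSMUSG00000041481), was at 132, 34.8, 0.0696 and 0.743 CPM in the same order. Its ratios were 1895-fold (739 to 6957) and 46.8-fold (34.4 to 65.3).

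A gene was counted as higher or lower when the log2 ratio of (CPM + 1) was at least 2 in size, a 4-fold difference in (CPM + 1). All counts of genes at least 4-fold higher or lower use this rule. At levels near or below 1 CPM it asks for more than 4-fold in CPM. All 6 genes were higher in the 2-day culture than at 9 dpp, where 1.29% of 16622 genes were (those with a sum of 50 UMIs or more). In the 7-day pair 5 were higher, all but Cp, against 0.674% of all genes. The median log2 ratio of the 6 was 7.47 and 4.43 in these pairs, and that of all genes was −0.12 and 0.00. Since the genes were chosen for this contrast, nothing is read from these counts. The 3′ UMI counts are not scaled for gene length, because each captured molecule is counted once near its 3′ end. In the last 500 bases of the longest coding transcript, 0 of 411 windows of 90 bases were found in another gene's transcripts for Hp, Lcn2, Cp and both serpins, and 9 of 411 for Saa3, all in Malat1.

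**Figure D1:**
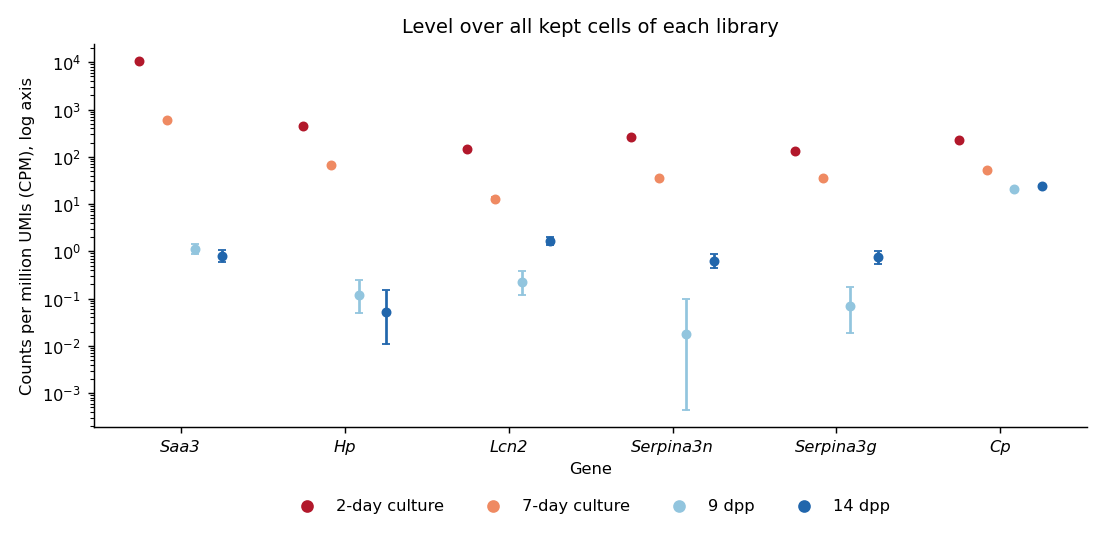
Level of each gene over all kept cells of a library, in CPM on a log axis, with exact 95% counting intervals. Both culture libraries lie above both in vivo libraries for all 6 genes, and Cp alone has in vivo levels above 20 CPM.

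Between the culture libraries all 6 genes were lower at 7 days than at 2 days. The 7-day level was 0.0584 of the 2-day level for Saa3 (0.0576 to 0.0592), 0.0883 for Lcn2 (0.0802 to 0.0969) and 0.145 for Hp (0.139 to 0.151). It was 0.141 for Serpina3n, 0.234 for Cp and 0.264 for Serpina3g. On the log2 ratio of (CPM + 1), 5 of 6 were at least 4-fold lower, all but Serpina3g, and 0.337% of all genes were. Saa3 was thus the member with the widest gap between the culture libraries, and Serpina3g the one with the narrowest.

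The promoters of Saa3 and Lcn2, the genes with the widest gap between the culture libraries, and of the linked serpin pair are shown, because genes that are high together invite a look at their upstream sequence. Promoter sequence from RefSeq (GRCm38.p6) was matched for 5 of the 6 genes, all but Hp. Each sequence below is the 250 bases before the annotated start, 5′ to 3′ on the gene's strand, and capitals mark matches to a motif. The motifs searched on both strands were the C/EBP motif TTNNGCAA, the STAT motif TTCNNNGAA and the NF-κB consensus.
Saa3, chr7:46715677-46715926, minus strand: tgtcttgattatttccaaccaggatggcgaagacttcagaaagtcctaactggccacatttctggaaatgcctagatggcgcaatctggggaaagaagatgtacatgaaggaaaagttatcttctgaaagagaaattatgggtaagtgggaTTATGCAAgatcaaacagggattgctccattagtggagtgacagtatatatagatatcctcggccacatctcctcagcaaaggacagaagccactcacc
Lcn2, chr2:32387740-32387989, minus strand: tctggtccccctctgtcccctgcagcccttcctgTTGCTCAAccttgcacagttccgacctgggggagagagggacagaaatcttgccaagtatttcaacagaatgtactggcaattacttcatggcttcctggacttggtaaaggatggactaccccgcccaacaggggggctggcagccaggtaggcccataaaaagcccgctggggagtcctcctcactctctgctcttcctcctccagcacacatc
Serpina3n, chr12:104406458-104406707, plus strand: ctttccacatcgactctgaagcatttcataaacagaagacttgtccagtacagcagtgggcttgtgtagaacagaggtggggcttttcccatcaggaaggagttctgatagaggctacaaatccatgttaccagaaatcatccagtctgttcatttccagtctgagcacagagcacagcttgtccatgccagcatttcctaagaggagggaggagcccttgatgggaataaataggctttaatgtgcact
Serpina3g, chr12:104235897-104236146, plus strand: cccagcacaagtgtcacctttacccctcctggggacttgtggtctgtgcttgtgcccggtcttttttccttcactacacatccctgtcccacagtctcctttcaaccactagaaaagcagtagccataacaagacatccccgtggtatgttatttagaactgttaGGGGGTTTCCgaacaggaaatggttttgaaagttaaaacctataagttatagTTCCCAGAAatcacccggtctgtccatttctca
The Saa3 window holds the C/EBP match TTATGCAA starting 99 bases before the start. The Lcn2 window holds TTGCTCAA, the same motif on the other strand, starting 216 bases before the start. The Serpina3g window holds the STAT match TTCCCAGAA 33 bases and the NF-κB match GGGGGTTTCC 85 bases before the start, which do not overlap. The Serpina3n window holds none of these letters. Of 2 annotated Cp starts, the window of the second holds the C/EBP match TTTTGCAA 70 bases upstream. So 3 of 5 genes had a C/EBP match, 1 a STAT match and 1 an NF-κB match. Over 32851 annotated starts, the shares of windows with a match were 9.56%, 7.02% and 7.25%. These shares are per window, while the counts are per gene, with a match at either Cp start enough. A match describes letters and shows no binding.

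In culture most UMIs of these genes were in stromal- or myoid-like cells, the collagen-rich interstitial cells and the contractile cells around the tubules. At 2 days this class held 94.7% of the Saa3 UMIs, 94.6% of Serpina3g, 91.9% of Serpina3n, 85.1% of Cp and 83.2% of Hp, but 63.6% of Lcn2. In the 7-day culture it held 27.3% of the Lcn2 UMIs, while Sertoli-like cells held 51.0% and Leydig-like cells 14.3%. Lcn2 thus had the smallest share of its UMIs in the stromal- or myoid-like class in both cultures.

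Within the stromal- or myoid-like class Saa3 was at 28918, 3041, 1.15 and 1.54 CPM in library order. The in vivo values rest on 11 and 8 UMIs in 1531 and 1147 cells. The 2-day ratio was 25212-fold (14091 to 50506) and the 7-day ratio 1975-fold (1002 to 4575), so both ratios were larger within the class than in the whole library.

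Hp in this class was at 1112, 303, 0.209 and 0.193 CPM in library order. Lcn2 was at 276 and 18.6 CPM in the cultures, with 0 UMIs at 9 dpp and 3 UMIs at 14 dpp. Its 2-day level was at least 882-fold higher, taken against a floor of 3 UMIs per library. The iron- and haem-binding genes therefore had almost no UMIs in this class in vivo, other than Cp.

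Serpina3n in this class was at 692 and 179 CPM in the cultures, 0.104 CPM (1 UMI) at 9 dpp and 5.01 CPM (26 UMIs in 20 cells) at 14 dpp. Serpina3g was at 366 and 170 CPM in the cultures, with 3 UMIs at 9 dpp and 0 at 14 dpp, which makes the 7-day culture at least 295-fold higher. By UMI counts, Serpina3n was above Serpina3g in this class at 2 days, and both were close at 7 days.

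Cp in this class was at 564, 240, 111 and 208 CPM in library order. The 2-day ratio was 5.10-fold (4.77 to 5.45) and the 7-day ratio 1.15-fold (1.07 to 1.24), both below the whole-library values. In vivo the class was 1.88-fold higher at 14 dpp than at 9 dpp (1.73 to 2.05). Cp in the pooled class thus differed less between culture and in vivo than the other 5 genes did. The class mixes cells with more stromal and cells with more or as many myoid marker UMIs. These numbered 1917 and 587 in the 2-day culture and 773 and 758 at 9 dpp. In the former Cp was at 549 against 27.4 CPM in the 2-day pair and 204 against 89.6 CPM in the 7-day pair. In the latter it was at 637 against 203 CPM and 320 against 302 CPM.

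In this class 6 of 6 genes of the 2-day pair and 5 of 6 of the 7-day pair were at least 4-fold higher, against 2.43% and 1.37% of 12220 genes. Between the cultures 2 of 6, Saa3 and Lcn2, were at least 4-fold lower at 7 days, against 0.581% of genes. The 7-day level was 0.105 of the 2-day level for Saa3, 0.0673 for Lcn2, 0.273 for Hp, 0.259 for Serpina3n, 0.425 for Cp and 0.464 for Serpina3g.

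**Figure D2:**
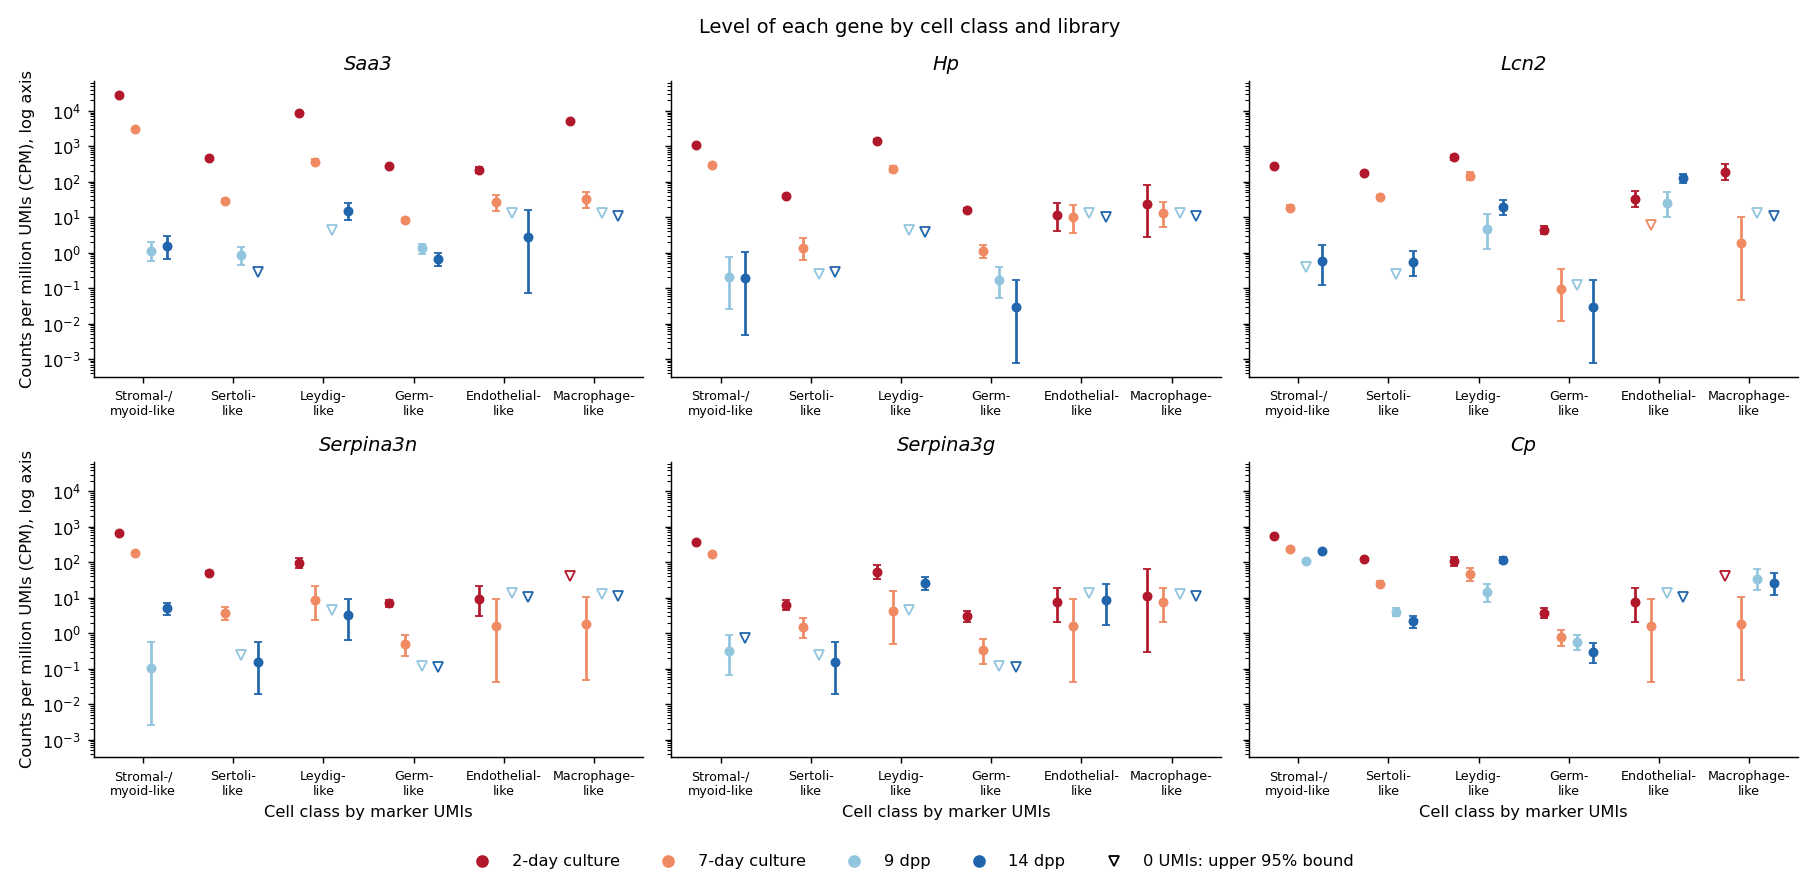
Level of each gene by cell class and library, in CPM on a log axis with exact 95% counting intervals; open triangles give the upper bound where a class had 0 UMIs. Stromal- or myoid-like and Leydig-like cells of the cultures are high for Saa3 and Hp, and endothelial-like cells at 14 dpp are high for Lcn2; Leydig-, endothelial- and macrophage-like classes hold 10 to 65 cells.

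Cells were thinned to 2000 UMIs to compare shares at 1 depth. After 2 days of culture 85.2% of 2225 thinned stromal- or myoid-like cells had a Saa3 UMI (83.7% to 86.7%), and in the 7-day culture 22.2% of 1422 (20.1% to 24.5%). The unthinned shares were 89.0% and 27.2%. In vivo the thinned shares were 0.201% at 9 dpp and 0.190% at 14 dpp. Germ-like cells, taken as the reference for background, had a Saa3 UMI in 40.1% of thinned cells in the 2-day culture and 1.89% in the 7-day culture, so part of the share in any class of the cultures can be background. The median depth of the cells was 3706 UMIs in the stromal- or myoid-like class and 3598 UMIs in germ-like cells of the 2-day culture, and 4118 and 6478 UMIs in the 7-day culture.

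For the other genes the germ-like background was low. In the 2-day culture the thinned stromal- or myoid-like shares were 60.2% for Serpina3n, 59.2% for Cp, 40.2% for Serpina3g, 34.3% for Hp and 22.5% for Lcn2, and the germ-like shares lay between 0.675% (Cp) and 3.46% (Hp). In the 7-day culture the stromal- or myoid-like shares were 35.7% for Cp, 22.5% for Serpina3n, 14.8% for Serpina3g, 11.1% for Hp and 2.25% for Lcn2. Cp was detected in 19.4% at 9 dpp and 32.4% at 14 dpp, so its 7-day share in the pooled class was near that of 14 dpp. In cells with more stromal than myoid marker UMIs the Cp share was 31.4% at 7 days and 17.1% at 14 dpp. In the other cells of the class it was 43.1% in both. These parts held 956 and 561 cells in the 7-day culture and 469 and 678 at 14 dpp, before thinning.

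Saa3 was unevenly spread over the cells of the class. In the 2-day culture the median cell had 9621 CPM of Saa3, the cell at the 90th percentile 80240 CPM and the highest cell 222940 CPM, that is 22.3% of its UMIs. The 10% of cells with the most Saa3 held 48.0% of the Saa3 UMIs in the 2-day culture and 92.5% in the 7-day culture. With cells ranked by each gene itself, these shares were for Hp 78.4% and 96.4%, for Serpina3g 46.9% and 80.4%, for Serpina3n 38.4% and 58.5%, and for Cp 35.9% and 38.0%. The lower level at 7 days thus came with a more uneven spread for 4 of these 5 genes and little difference for Cp; at lower levels the UMIs of a gene also fall in fewer cells by counting alone.

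Cells high for Saa3 were more often positive for the other genes. The thinned 2-day cells were put in 4 bins by Saa3 UMIs, from 0 to 2 up to 89 to 464 UMIs. The share with an Hp UMI was 8.41%, 25.9%, 43.1% and 62.9% over these bins, and the share with an Lcn2 UMI 3.58%, 9.83%, 25.8% and 51.9%. Serpina3g went from 20.4% to 61.8%, Cp from 38.6% to 81.3% and Serpina3n from 45.2% to 76.0%, each higher in every next bin. In the 7-day culture 316 thinned cells with Saa3 were set against 1106 without it: 35.8% against 4.07% had an Hp UMI and 34.2% against 9.31% a Serpina3g UMI. Since a fixed total of 2000 UMIs includes Saa3 itself, high-Saa3 cells had fewer UMIs left for other genes.

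**Figure D3:**
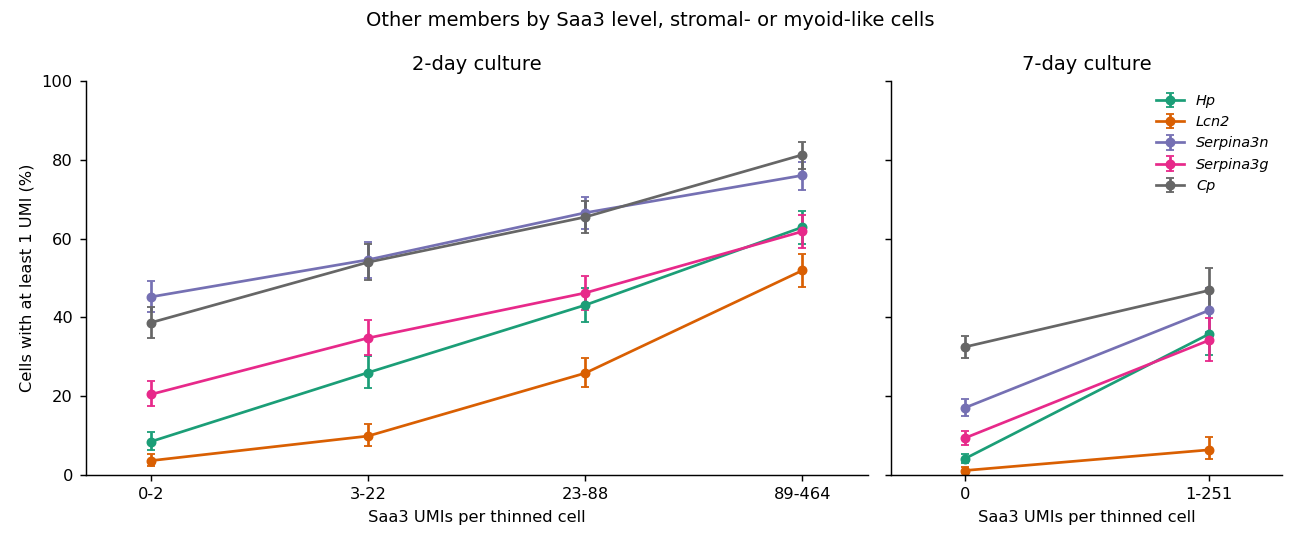
Share of thinned stromal- or myoid-like cells with at least 1 UMI of each other gene (percent, y axis, exact 95% intervals) by bin of Saa3 UMIs per cell (x axis) in the 2-day and 7-day cultures. In the 2-day culture Hp goes from 8.41% in the lowest bin to 62.9% in the highest.

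The class was split by whether a cell had more UMIs of 7 stromal markers or of 6 myoid markers. Summed over the class, the myoid markers were at 3619, 5996, 10926 and 14189 CPM in library order, and their part in the results was not tested. Saa3 was at 32044 CPM in the 1917 stromal-leaning and 13182 CPM in the 587 myoid-leaning cells of the 2-day culture, and at 4157 and 511 CPM in the 7-day culture. Hp differed most at 7 days, with 431 CPM in stromal-leaning and 13.8 CPM in myoid-leaning cells, and Serpina3g was at 233 and 28.0 CPM. Lcn2 was at 291 and 199 CPM at 2 days, and at 7 days at 19.1 CPM (15.4 to 23.3) and 17.5 CPM (12.4 to 24.0), which overlap. Cp had the opposite order in every library: in myoid-leaning cells it was at 637, 320, 203 and 302 CPM in library order, and in stromal-leaning cells at 549, 204, 27.4 and 89.6 CPM. In stromal-leaning cells Cp was thus above both in vivo libraries in both cultures; in myoid-leaning cells it was too at 2 days, while at 7 days its interval (296 to 344 CPM) overlapped that of 14 dpp (283 to 323 CPM).

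**Figure D4:**
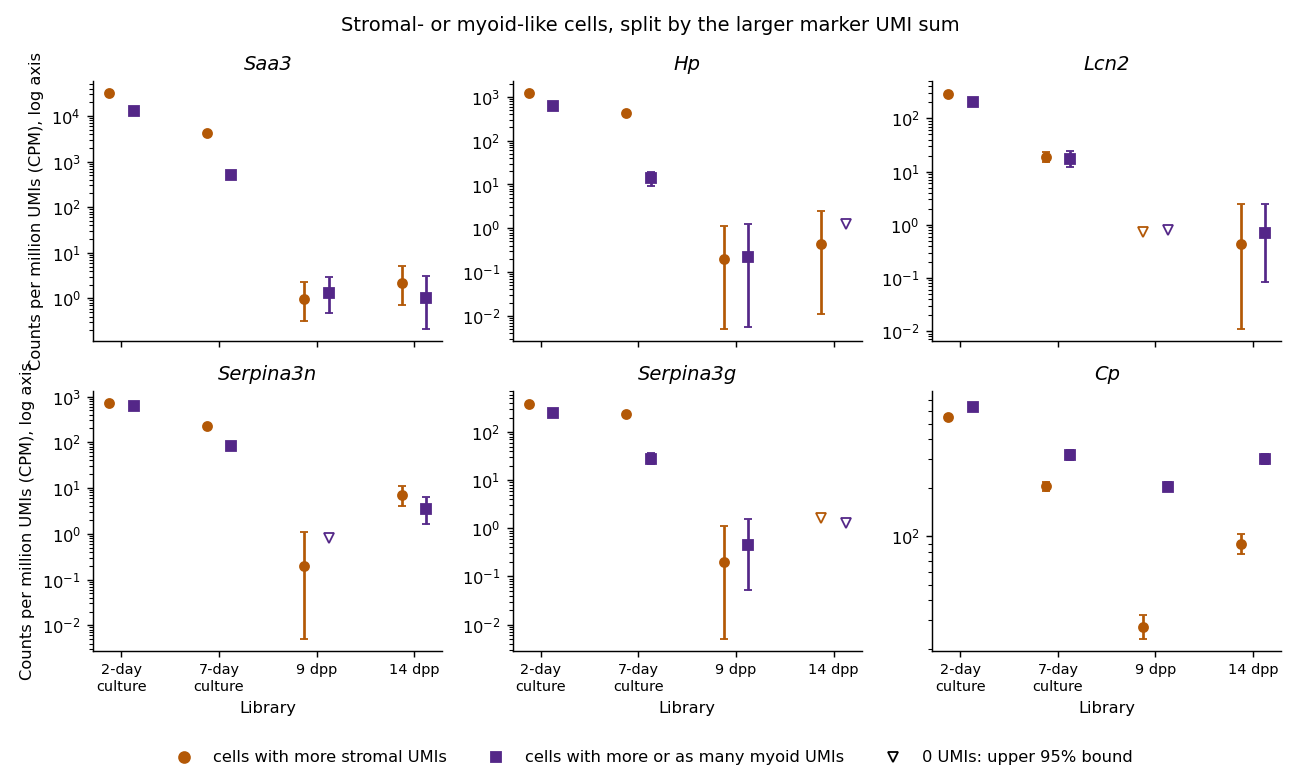
Level of each gene in CPM (log axis, scaled per panel, exact 95% counting intervals) in stromal-leaning and myoid-leaning cells of the 4 libraries; open triangles are upper bounds at 0 UMIs. In both cultures 4 genes are higher in stromal-leaning cells; Lcn2 is so at 2 days, while its intervals overlap at 7 days, and Cp is higher in myoid-leaning cells of all 4 libraries.

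Free RNA released by broken cells gives UMIs in droplets of other cells, and was estimated from 16 stromal genes that are neither members nor class markers. Their median level in germ-like cells was 1.53% of the stromal- or myoid-like level in the 2-day culture and 0.751% in the 7-day culture, with the middle 50% of the genes at 1.14% to 1.99% and 0.480% to 1.87%. The level this share would give was set against the level observed. In germ-like cells the observed Saa3 level was 278 CPM against an expected 442 CPM in the 2-day culture, a ratio of 0.630. For the other 5 genes the germ-like ratio was 0.434 to 1.04 in the 2-day culture, and for all 6 genes it was 0.265 to 0.695 in the 7-day culture. In culture the germ-like levels of all 6 genes were thus below the estimate, Saa3 well below it, or within counting error of it, and no germ-like level above background is read from them. In vivo the germ-like Saa3 level was 1.32 CPM at 9 dpp and 0.653 CPM at 14 dpp, from 40 and 22 UMIs. The expected levels, 0.00973 and 0.0117 CPM, rest on 11 and 8 stromal- or myoid-like UMIs. They lie below the floor of 3 UMIs in germ-like cells (0.0990 and 0.0891 CPM), so no ratio to them is read. At 9 dpp Saa3 was at 1.15 CPM in stromal- or myoid-like and 0.861 CPM in Sertoli-like cells. At 14 dpp it was at 1.54 CPM in the former, with 0 UMIs in the latter. With no free RNA taken off, at least 4-fold higher levels were found for 4 of the 5 genes tested in the 2-day pair (0.144% of 14560 genes) and for 1 of 5 in the 7-day one (0.0549%).

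In Sertoli-like cells, the somatic nurse cells of the tubule, the genes parted. Saa3 was at 469 CPM after 2 days and 28.6 CPM after 7 days of culture, 1.06 and 1.25 times the expected free RNA level, and 109 of the 191 UMIs at 7 days were in 1 cell. Serpina3g was at 1.12 and 1.17 times that level. Against this estimate neither gene could be told apart from free RNA in this class. The estimate was above the germ-like levels of both genes in the 2-day culture, at ratios of 0.630 and 0.535. There the Sertoli-like level was above the germ-like one for Saa3 (453 to 485 against 269 to 288 CPM) and Serpina3g (4.54 to 8.39 against 2.10 to 4.14 CPM). With the reference genes taken in Sertoli-like cells, the 2-day ratios were 0.746 and 0.786. The difference between classes was not tested.

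Lcn2 and Cp in Sertoli-like cells were well above it. Lcn2 was at 180 CPM after 2 days and 37.0 CPM after 7 days of culture, 42.8 and 266 times the free RNA level, and had 0 UMIs at 9 dpp and 7 UMIs at 14 dpp in 882 and 972 cells. The 2-day level was at least 907-fold higher than at 9 dpp, and the 7-day level 68.0-fold higher than at 14 dpp (32.5 to 171). At 7 days the Sertoli-like level of Lcn2 was above the stromal- or myoid-like level of 18.6 CPM. Cp was at 121, 24.7, 3.91 and 2.18 CPM in library order, 14.0 and 13.7 times the free RNA level in the cultures. Its ratios were 31.0-fold (23.8 to 41.0) and 11.3-fold (7.57 to 17.6), larger than those of the stromal- or myoid-like class; the difference between classes was not tested.

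Serpina3n in Sertoli-like cells was at 50.7 and 3.75 CPM in the cultures, 4.80 and 2.78 times the free RNA level, and Hp at 38.6 and 1.35 CPM, 2.27 and 0.593 times that level. Against the upper quartile of the reference genes the 7-day Serpina3n level was 1.12 times and the 2-day Hp level 1.74 times the expected one, and Lcn2 was still at 32.8 and 107 times. In the 2-day culture Hp was at 3.48% of the stromal- or myoid-like level, inside the quartiles of the reference genes in Sertoli-like cells themselves (1.65% and 4.34%). In the 2-day culture 59 of the 272 Hp UMIs were in 1 cell. Over the whole class 6 of 6 genes of the 2-day pair and 4 of 6 of the 7-day pair were at least 4-fold higher in (CPM + 1). The shares of 12268 genes were 1.93% and 2.71%, with no free RNA taken off. Hp and Serpina3g, not counted in the 7-day pair, were at least 5.78-fold and 9.63-fold higher in CPM, from 9 and 10 UMIs in culture. Sertoli-like cells had a median of 3215 UMIs in the 2-day culture and 9340 to 13993 UMIs in the other libraries. After thinning, 21.5% of 739 Sertoli-like cells had an Lcn2 UMI in the 2-day culture and 5.0% of 520 in the 7-day culture. In germ-like cells these shares were 1.1% and 0%, and by the limit of 3 counts 0 of 2437 cells allows a share of up to 0.123% with a UMI at this thinned depth.

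Leydig-like cells, which make androgens, were too few in the 7-day culture for a comparison of classes and are given as counts. At 2 days 49 of 50 cells had a Saa3 UMI, 29 had an Hp UMI and 29 an Lcn2 UMI, with 3722, 616 and 206 UMIs in all. Of the Saa3 UMIs 1046 were in 1 cell. These cells held 6.04 Saa3 UMIs per Hp UMI, against 26.0 in the stromal- or myoid-like class and 17.1 in germ-like cells of the same library; their Saa3, Hp and Lcn2 levels were 19.9, 85.8 and 116 times the free RNA level set by the median reference gene. In the 7-day culture 22 of 44 cells had an Lcn2 UMI, with 69 UMIs, and 14 had a Saa3 UMI, with 152 of 175 UMIs in 1 cell. At 14 dpp 45 of 65 cells had a Cp UMI, 14 a Serpina3g UMI and 12 an Lcn2 UMI. At 9 dpp 12 of 58 cells had a Cp UMI, 4 an Lcn2 UMI and 0 a Serpina3g UMI. The 7-day culture was below 14 dpp for Serpina3g, with 2 against 24 UMIs, and for Cp, with 22 against 112 UMIs. It was above 14 dpp for Lcn2, with 69 against 18 UMIs, for Hp, with 109 against 0, and for Saa3, with 175 against 14. Of these UMIs 53 of the 109 for Hp were in 1 cell, and for Saa3 13 of the 14 at 14 dpp. Serpina3n had 4 against 3 UMIs.

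Endothelial-like cells, which line vessels, held Lcn2 in vivo. At 14 dpp 16 of 22 cells had an Lcn2 UMI, 45 of the 94 UMIs of the library, and at 9 dpp 4 of 18 cells had one, 7 of 13 UMIs. The other 5 genes had between 0 and 3 UMIs in these cells in either in vivo library. After 2 days of culture 13 of 46 endothelial-like cells had an Lcn2 UMI, 18 UMIs in all. In the 7-day culture 0 of 19 had one, at least 25.6-fold below the 45 UMIs of 14 dpp, taken against a floor of 3 UMIs; in this pair the order of culture and in vivo was thus the opposite of that in the whole library, and in the 2-day pair it was the same (33.7 against 25.7 CPM, 1.31-fold, 0.523 to 3.72). Macrophage-like cells numbered 10 in the 2-day culture and held 442 Saa3 UMIs, 349 of them in 1 cell, and 17 Lcn2 UMIs, 16 of them in 1 cell. In vivo, 28 and 47 macrophage-like cells held 0 UMIs of Saa3, Hp, Lcn2 and both serpins, and Cp had a UMI in 7 cells of each library.

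**Figure D5:**
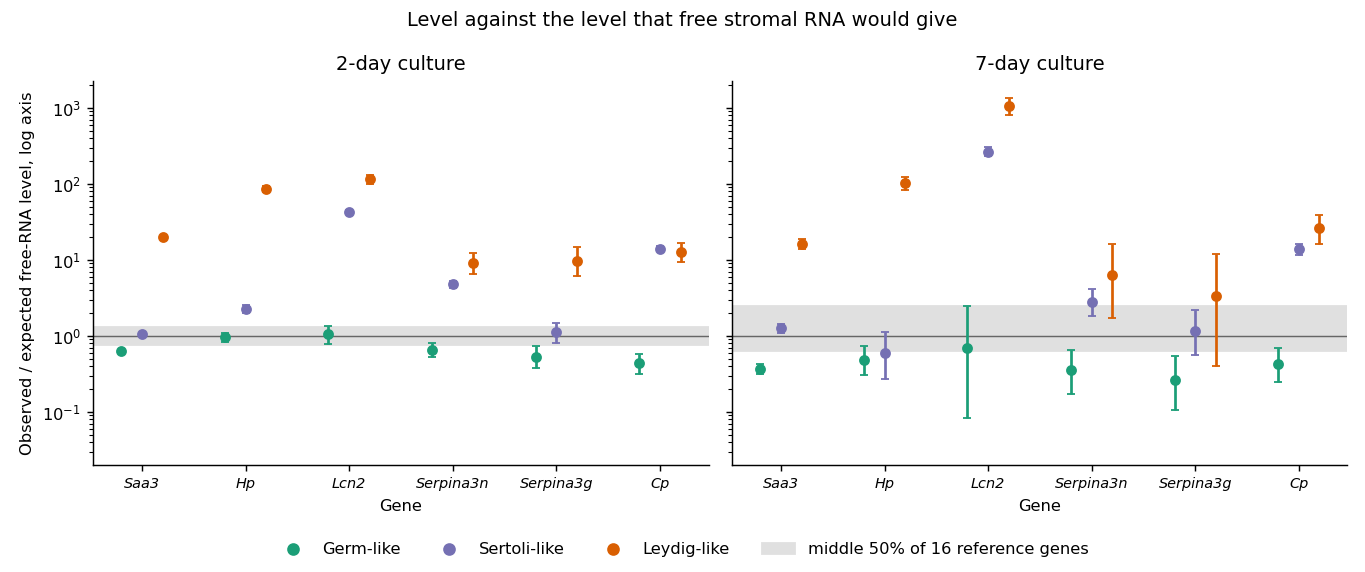
Observed level over the level expected from free stromal RNA (log axis) in germ-like, Sertoli-like and Leydig-like cells of the 2-day and 7-day cultures, with exact 95% counting intervals of the observed level; the grey band spans the middle 50% of the 16 reference genes. Germ-like cells sit between 0.265 and 1.04, and Lcn2 in Sertoli-like cells sits at 42.8 and 266.

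Over the 12 sums of stromal- or myoid-like, Sertoli-like and germ-like cells in 4 libraries, the genes whose log2(CPM + 1) was most like each member were listed by Pearson's r among 16266 genes. The 12 points share libraries, depth and free RNA, so r is a description only. For Saa3 the 5 nearest were Ccl2, a chemokine that draws monocytes (r = 0.99), Hp (0.98), Cxcl5 (0.96), Ctla2a (0.96) and Serpina3n (0.95). For Hp they were Ccl2, Cxcl5, Saa3, Ccl7 and Ctla2a, with r from 0.98 to 0.99, and for Serpina3n Ccl2, Ctla2a, Ccl7, Hp and Ifit1, from 0.96 to 0.98. Lcn2 had other neighbours, Abcc3, Rab32, Car2, Cxcl2 and Tnfaip2 (0.94 to 0.97). Serpina3g was nearest to Serpina3f of the same cluster (0.99), then Wisp2, Il33, Ifi205 and Hp (0.98). Cp was nearest to C2, Csf1, Casp12, Lrrn4cl and Efemp1 (0.98), and its r with Saa3 was 0.62, against 0.87 for Lcn2 with Saa3.

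Other genes of the acute phase and its signalling were counted from lists. Of 25 other acute phase genes 15 had enough UMIs over all cells, of which 7 were at least 4-fold higher in the 2-day pair and 3 in the later one, and 0 lower. Of all genes 1.29% and 0.674% were at least 4-fold higher and 0.493% and 0.481% lower in these pairs, the shares that the counts of the further lists over all cells stand beside. The median log2 ratios of the 15 were 1.81 and 0.52. Complement component C3 (log2 ratios 6.13 and 5.91) and the metalloreductase Steap4 (3.11 and 2.88) were higher in both pairs. The liver-type serum amyloid gene Saa1 was at 12.4, 3.80, 2.10 and 0.566 CPM in library order, far below Saa3 in culture and above it at 9 dpp by UMIs (121 against 64); it is named after its values were seen. Of 6 tested negative acute phase genes, which plasma loses in inflammation, 0 passed 4-fold in either direction over all cells. In stromal- or myoid-like cells 3 were tested and 1 was higher in the 2-day pair, the iron carrier Trf (2.55), named after its values were seen.

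In stromal- or myoid-like cells 9 of the other acute phase genes were tested, and 7 and 5 were higher in the 2-day and 7-day pairs, against 2.43% and 1.37% of all genes in this class. C3 (7.63 and 8.76), complement factor Cfb (6.04 and 2.95), the metallothioneins Mt2 (5.38 and 2.65) and Mt1 (3.28 and 2.24), and Steap4 (2.36 and 2.63) were higher in both. Over all cells Mt1 and Mt2 had log2 ratios of only 0.49 and 0.34 in the 2-day pair. C3 was at 433 CPM in this class in the 7-day culture and 238 CPM in the 2-day culture, the opposite order to the 6 genes described here.

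Of the serpin cluster, 4 genes were tested over all cells and 2 were higher in the 2-day pair, against 1.29% of all genes. Serpina3f, of the same cluster as Serpina3g, was at 31.8 and 8.75 CPM in the cultures with 0 UMIs at 9 dpp and 4 at 14 dpp (log2 ratios 5.04 and 3.19). Serpina3i was higher in the 2-day pair only (3.05 and 1.20). Serpina3a was below 4-fold, with −1.17 and −1.12. Serpina3i and Serpina3a are named after their values were seen. Log2 ratios within 1 cluster thus did not all have the same sign.

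Of the inducing cytokines 6 were tested, with 1 higher and 1 lower in the 2-day pair, against 1.29% and 0.493% of all genes. Il6 was at 9.98 CPM in the 2-day culture and 0.189 CPM in the 7-day culture, with 0 and 1 UMIs in vivo; it is named after its values were seen. Il11, an interleukin 6 family cytokine, was lower in both pairs (−4.15 and −2.87), at 157 CPM at 9 dpp. Of 9 receptor genes 1 was higher, the oncostatin M receptor Osmr (3.06 and 1.63), also named after its values were seen. Of 12 regulators 5 and 2 were higher in the 2-day and 7-day pairs over all cells, against 1.29% and 0.674% of all genes: Socs3, the feedback inhibitor of STAT3 signalling (2.64 and 2.22), and the C/EBP factor Cebpb (2.50 and 3.14) in both. Of 13 genes for binding partners and targets of the 6 proteins 1 was higher, the receptor Tlr2 (2.45 and 1.95), named on the same ground.

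The same lists were counted within stromal- or myoid-like cells, where 2.43% and 1.37% of all genes were higher and 1.13% and 0.876% lower in the 2-day and 7-day pairs. Of the 12 regulators 3 and 1 were higher there: Cebpb passed in both pairs (2.72 and 3.31), and Socs3 in neither (1.62 and 1.24). Of 4 tested genes of the serpin cluster, Serpina3f (6.48 and 5.22) and Serpina3i (4.05 and 2.73) were higher in both pairs, and Serpina3a was lower at 7 days (−1.31 and −2.38). Of 11 tested partners and targets Tlr2 was higher in both (3.65 and 3.39). Of 4 inducing cytokines 1 was higher in the 2-day pair, and of 9 receptor genes 2 were, with 0 in the 7-day pair.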

How the data were processed

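The authors deposited raw UMI counts by barcode and gene; Cell Ranger 3.0.2 and mm10 are named in the submitters' processing notes; per the labels, libraries used the Chromium Single Cell 3′ v2 kit, in a protocol text that names female gonads although the samples are testes, so the kit is uncertain. How barcodes were called as cells is not given in the sources used here. Deposited barcodes numbered 7710, 5149, 5465 and 6527, with 34491701, 38632065, 60829941 and 58369264 UMIs, in library order. Counts of symbols with several identifiers were added up.

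The cell filter asked for at least 500 genes and no more than 20% mitochondrial UMIs, and Scrublet calls (scanpy 1.11.5, expected rate 6%) of 1.87% to 3.52% per library were removed. A cell was given a class when at least 5 UMIs of at least 2 markers, and at least 70% of all marker UMIs, were of that class; stromal and myoid markers were pooled. Cells near this threshold (60% to 80%) numbered 267, 101, 174 and 350. UMIs were summed per library or class and scaled to CPM. Intervals are exact Poisson for levels, exact conditional for ratios and Clopper-Pearson for shares, all at 95%; PCR and sampling of tissue are not covered. No test between groups was run. The threshold of 4-fold used genes with at least 50 UMIs. Cells were thinned to 2000 UMIs, and shallower cells left out. TMM factors came from edgeR 4.0.16.

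The 6 members and all lists were chosen with earlier results of these data known. All members are named; list genes are named when at least 4-fold in the same direction in both pairs, others only where the text says that their values had been seen, and likeness gives the 5 nearest genes. Gene positions are from GENCODE M21 (30934 of 31053 identifiers found).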

Additional observations from a re-analysis of the deposited data

Results flagged for a closer look

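For 4 of the 6 genes the level over all kept cells differed with time in opposite directions in culture and in vivo. This compares 1 library with 1 library on each side, and the difference between the directions was not tested. The share of all genes with opposite directions was not counted. On the log2 ratio of (CPM + 1), 0 of the 6 were at least 4-fold higher at 14 dpp than at 9 dpp, against 1.2% of all genes. Lcn2 at 7 days of culture was 0.0883 of its 2-day level, and at 14 dpp 7.35-fold its 9 dpp level (4.10 to 14.3). Of its 94 UMIs at 14 dpp, 45 were in endothelial-like cells. Serpina3n was at 0.141 in culture and 36.6-fold in vivo, where the 9 dpp value rests on 1 UMI (6.16 to 1485). Serpina3g was at 0.264 in culture and 10.7-fold in vivo (3.87 to 41.0), from 4 UMIs at 9 dpp. Of its 42 UMIs at 14 dpp, 24 were in Leydig-like cells. The stromal- or myoid-like class had 3 Serpina3g UMIs at 9 dpp and 0 at 14 dpp. Cp was at 0.234 in culture and 1.17-fold in vivo (1.08 to 1.27). By class, Cp at 14 dpp was 1.88-fold its 9 dpp level in stromal- or myoid-like cells and 0.558-fold (0.343 to 0.889) in Sertoli-like cells.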

How the results depend on the processing

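Each of the 4 counts of genes at least 4-fold higher (all kept cells and stromal- or myoid-like cells, 2-day and 7-day pairs) stayed at 6 for the 2-day pair and at 4 to 5 for the 7-day pair under every alternative run. These were a constant of 0.1 or 10 added to the CPM, no UMI minimum, a stricter cell filter, doublet calls kept, TMM factors, cells weighted equally, Saa3 left out of the total and other class thresholds. The share of all genes called higher moved most with the constant. With 10 and with 0.1 it was 0.427% and 2.33% in the 2-day pair and 0.126% and 1.56% in the 7-day pair, over all kept cells. In stromal- or myoid-like cells it was 0.851% and 3.09%, and 0.327% and 2.19%. With a constant of 10 the log2 ratio of Lcn2 in the 7-day pair was 0.98. TMM factors moved the median log2 ratio of all genes in the 2-day pair from −0.12 to 0.02 and changed no direction of the 6 genes. In germ-like cells, taking off the expected free RNA turned the log2 ratio of Saa3 to −1.21 (2-day pair) and −0.72 (7-day pair), and that of Hp to −0.22 (2-day pair) and −0.04 (7-day pair), and that of Lcn2 to −0.04 (7-day pair). Those of Serpina3n, Serpina3g and Cp became 0 in both pairs. In Sertoli-like cells that of Hp became 0 in the 7-day pair, which like the germ-like values follows from levels at or below the expected one; that of Saa3 in the 2-day pair went from 7.98 to 3.90. Of 44 ratios to the free RNA level, 22 and 19 moved beyond their interval with the lower or upper quartile of the reference genes in place of the median. Shares of cells depended on depth: 51 of 72 moved beyond their interval without thinning. The lists of nearest genes changed for all 6 members with Spearman's rho and without germ-like cells. With Spearman's rho none of the 5 nearest genes named for Lcn2 or for Cp stayed among the 5 nearest. The other lists changed in part. No paired analysis was possible because each group has 1 library. Several in vivo values rest on 0 to 13 UMIs, so their ratios have wide intervals, although the in vivo libraries hold more UMIs than the cultures.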

Other observations

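In vivo Saa3 UMIs were spread thinly over classes. At 9 dpp 64 UMIs lay in 47 cells, 40 of which had 1 UMI, and 40 of the UMIs were in germ-like cells. At 14 dpp 46 UMIs lay in 26 cells, with 13 in 1 Leydig-like cell. Of kept cells at 9 dpp 72 had a barcode that also occurs in the deposited 2-day culture barcodes, and these held 1 of the 64 UMIs; at 14 dpp 81 such cells held 0 of 46.

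Cells without a class numbered 270 in the 2-day culture and held 6680 Saa3 and 1352 Hp UMIs, 4.94 Saa3 UMIs per Hp UMI. In the 7-day culture 137 such cells held 335 and 135 UMIs, a ratio of 2.48. In stromal- or myoid-like cells the ratio was 26.0 and 10.0.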
